A study of Rattus norvegicus with 3 samples.

Results

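The cells described are the keratinocytes captured from healing skin wounds of diabetic rats, 582 barcodes of 41236 that passed quality filters in 3 single-cell RNA libraries. A barcode was kept with at least 500 UMIs (unique molecular identifiers, each a counted RNA molecule), at least 300 genes and no more than 20% mitochondrial UMIs. The members were chosen by their measured RNA: a kept barcode was called a keratinocyte when it held UMIs of at least 3 of Krt5, Krt14, Krt15, Krt17, Sfn, Perp and Lgals7, when Krt5, Krt14, Krt15 and Krt17 together made up at least 0.2% of its UMIs, and when it held no UMI of Ptprc (leukocytes), Pdgfra (fibroblasts) or Cdh5 (endothelium). The rule gave 98 cells in the untreated library, 133 in the hydrogel library and 351 in the CO hydrogel library. Cells with a UMI of Krt1 or Krt10, the keratins of the layers above the basal layer, are reported apart: 23, 47 and 122 cells were positive, and 75, 86 and 229 were negative.

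Keratinocytes are the epithelial cells of the epidermis. In intact skin they divide in a basal layer that is anchored to the basement membrane by laminin and integrins, and they switch from Krt5 and Krt14 to Krt1 and Krt10 as they leave it. At a wound edge they loosen their junctions, take up stress keratins such as Krt16 and Krt17, secrete proteases and laminin, and migrate as a sheet over the wound bed, and cells from hair follicles join them. They also release chemokines and antimicrobial proteins that act on immune cells.

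All 3 groups were male wild type rats of the SD strain in which diabetes was induced by streptozotocin, a toxin for insulin-producing cells, given intraperitoneally at 65 mg/kg at an age of 7 to 9 weeks. Animals with a blood glucose above 16.7 mM received full-thickness skin defects 15 mm across. The wounds were left untreated, covered with a hydrogel of hyaluronic acid (hydrogel), or covered with such a gel that also gives off carbon monoxide (CO hydrogel), and tissue was taken 7 days into treatment. Each group is 1 library, and the labels do not say how many animals or wounds it holds, so the libraries have no replicate and no test between them was possible. Skin was digested with an epidermis dissociation kit, and no sort is mentioned.

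The deposited matrices held 12883, 15442 and 15376 barcodes for untreated, hydrogel and CO hydrogel, against about 8000 cells a sample named in the labels. Depth differed between libraries, with a median of 2655, 5622.5 and 5820 UMIs per kept barcode. Some barcodes occurred in more than 1 library: 477 in both hydrogel libraries, 600 in CO hydrogel and untreated, and 364 in hydrogel and untreated. Among keratinocytes, 22 of the untreated cells (22.4%), 9 of the hydrogel cells (6.77%) and 25 of the CO hydrogel cells (7.12%) carried such a barcode, against 5.08%, 3.44% and 4.99% of all barcodes. Results are therefore also given without them. Intervals throughout are exact 95% intervals that cover counting error only, not differences between animals. Those of gene levels and ratios count each UMI as independent, so they do not cover differences between cells either.

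The genes of the rule describe the cells and are not findings. Levels are given as CPM, UMIs scaled to a total of 1000000 per set of cells. Over all keratinocytes, Krt17 stood at 24947, 18211 and 16819 CPM in untreated, hydrogel and CO hydrogel, and Krt5 at 8001, 5104 and 5276 CPM. Krt15, a keratin of basal cells and the follicle bulge, stood at 470, 2240.3 and 2317 CPM. In the other kept barcodes the same 3 genes stayed below 265 CPM in every library. The 4 keratins made up a median of 2.89%, 2.33% and 2.13% of a keratinocyte's UMIs, and 1, 2 and 18 members lay just inside the threshold, between 0.2% and 0.3%. Just outside it, between 0.1% and 0.2%, lay 1, 4 and 12 barcodes that met the other criteria.

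Genes that the rule did not use described the same cell type. Of 20 further keratinocyte markers, 18 had a symbol in the files and all 18 were detected in each library, with a summed level of 9171, 7695 and 7857 CPM in keratinocytes against 95.9, 121 and 157 CPM in the other barcodes. Outside the rule, Krt16 had the highest ratio to the other barcodes in the library where that ratio was smallest, at 291, 228 and 278 CPM against 0.931, 2.24 and 2.77 CPM. Serpinb3a, a protease inhibitor of squamous epithelia, stood at 107, 539 and 280 CPM, and Tfap2b, a transcription factor of the AP-2 family, at 65.8, 99.1 and 127 CPM. Other leading genes were Esrp1, the epithelial splicing regulator, Tgm3, which cross-links the cornified envelope, and Dsp, the desmosomal plaque protein at 1782, 1886 and 1870.4 CPM. By these markers the cells carry the label keratinocytes.

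RNA of other cell types was present and differed between libraries. In Krt1- and Krt10-negative keratinocytes, all 10 genes of a fibroblast list were detected, with a summed level of 3368, 1365 and 6552 CPM in untreated, hydrogel and CO hydrogel, or 10.0%, 6.23% and 13.1% of their level in the other barcodes. A macrophage list summed to 474, 804 and 392 CPM. A mural cell list summed to 29.5, 44.4 and 249 CPM, in CO hydrogel 33.9% of its level in the other barcodes. An endothelial list reached at most 28.0% of that level, in untreated, and a T or NK cell list at most 29.7%, in CO hydrogel. A neutrophil list summed to 4737, 19776 and 7905 CPM. That list includes S100a8 and S100a9, which keratinocytes also make, and it stood at 37.4%, 422% and 793% of the other barcodes' level. All 10 of its genes were detected in untreated and hydrogel, while in CO hydrogel Csf3r, Cxcr2, Retnlg, Mmp8 and Pglyrp1 were at 0.

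Keratinocytes made up a larger share of the CO hydrogel library. They were 0.819% of kept barcodes in untreated (interval 0.665% to 0.997%), 0.927% in hydrogel (0.777% to 1.10%) and 2.35% in CO hydrogel (2.11% to 2.61%). The intervals of untreated and hydrogel overlap and that of CO hydrogel lies above both. Without the shared barcodes the shares were 0.671%, 0.896% and 2.30%. With likely doublets removed they were 0.862%, 0.925% and 2.03%, and this took out 6, 16 and 84 keratinocytes. Over barcodes with no Ptprc UMI and outside a neutrophil gate, the shares were 1.91%, 2.15% and 3.32%, so the ratio of CO hydrogel to the others was smaller. How much epidermis each dissected sample held is not given, and its part in these shares was not tested.

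At equal depth the share of keratinocytes with a UMI of Krt1 or Krt10 was higher in the treated libraries, with overlapping intervals, and so was the background in some other cell types. With each cell thinned to 1000 UMIs, 6 of 82 untreated cells (7.32%, interval 2.73% to 15.2%), 20 of 111 hydrogel cells (18.0%, 11.4% to 26.4%) and 52 of 301 CO hydrogel cells (17.3%, 13.2% to 22.03%) were positive; 16, 22 and 50 shallower cells were left out. Without the shared barcodes, and with the thinning drawn anew, the shares were 6.15%, 17.8% and 16.2%. Without thinning they were 23.5%, 35.3% and 34.8%. In gated fibroblasts, a type that should lack these keratins, the shares were 1.73%, 1.22% and 2.27% after thinning, and 24.6%, 19.6% and 20.1% without it at median depths of 18146.5, 14008 and 9884 UMIs. Gated neutrophils had 0.195%, 2.12% and 2.23% and gated macrophages 0.389%, 1.07% and 1.27% after thinning, so this background was itself higher in the treated libraries in both of these types. With at least 3 UMIs needed after thinning, the shares of keratinocytes were 6.10%, 9.91% and 8.31%, and the difference between libraries was smaller. The part of free RNA in it was not tested. The thinned shares of keratinocytes lie above that background, while the unthinned share of untreated cells, at a median of 6827.5 UMIs, does not.

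Cycling cells, those with UMIs of at least 2 of 8 mitotic genes such as Mki67 and Top2a, were 14.6% of untreated keratinocytes (12 of 82), 7.21% of hydrogel (8 of 111) and 7.97% of CO hydrogel (24 of 301) at 1000 UMIs a cell. Their intervals overlap. Without the shared barcodes the shares were 10.8%, 8.41% and 8.80%. Thinning was drawn anew for the alternative cell sets, so these values differ by the draw as well as by the cells. In that draw untreated reached at most 14.1% under any cell set. Hydrogel and CO hydrogel were at least 8.41% and 8.46%, so the libraries lay closer than in the main draw. The same call marked 4.82%, 2.06% and 1.87% of gated fibroblasts.

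**Figure D1:**
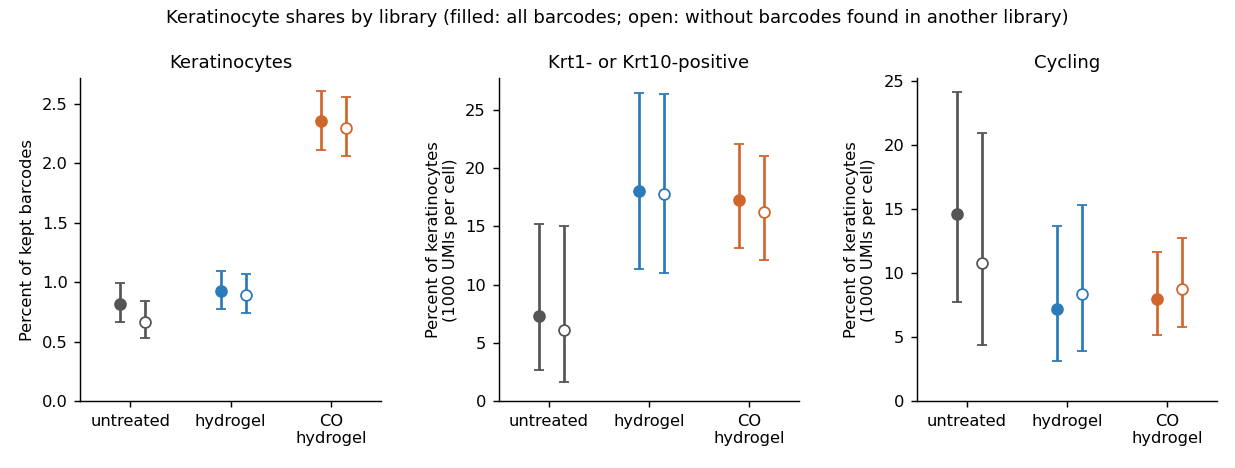
Share of keratinocytes among kept barcodes, and of Krt1- or Krt10-positive and cycling cells among keratinocytes thinned to 1000 UMIs, by library, in percent. Filled points are all barcodes, and open points leave out barcodes found in another library, with any thinning drawn anew. Bars are exact 95% binomial intervals. The CO hydrogel library stands above both others in the first panel, at 2.35%, and the intervals overlap in the other panels.

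Gene levels were set side by side in the Krt1- and Krt10-negative keratinocytes, whose UMIs summed to 880595 in untreated, 924366 in hydrogel and 1395960 in CO hydrogel. Neither gene was found in these cells, but their medians were 2316, 3597.5 and 2978 UMIs, against 29555, 14177 and 13578 in positive cells. They therefore need not share a cell state. The deepest cell held 10.7%, 12.2% and 2.96% of the summed UMIs. Cells with at least 5000 UMIs numbered 32, 38 and 73 and held 819231, 839916 and 1070575 UMIs. A gene counted as higher or lower where its CPM differed at least 2-fold. Of genes with at least 50 UMIs over a pair, 3.43% were higher and 4.84% lower in hydrogel than in untreated, 5.43% and 3.26% in CO hydrogel than in untreated, and 3.61% and 1.03% in CO hydrogel than in hydrogel. Gene lists were described over members with at least 20 UMIs, where 6.16% of all genes were higher and 6.4% lower for hydrogel to untreated, 10% and 3.94% for CO hydrogel to untreated, and 6.4% and 2.08% for CO hydrogel to hydrogel. The median log2 ratio of all these genes was 0.02, 0.12 and 0.07. Scaling with edgeR's trimmed mean of M values (TMM) in place of total UMIs moved the median over genes with at least 50 UMIs from 0.07 to -0.04 for CO hydrogel to untreated, and the part of its calls that were higher from 62.5% to 51.3%. Both treated libraries are set against the same untreated library, so their ratios to it are not independent.

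Genes of wound-activated keratinocytes were lower in both treated libraries than in untreated. Of 20 measured members, 10 were at least 2-fold lower and 0 higher in hydrogel (median log2 ratio -1.08), and of 22 members 10 were lower and 1 higher in CO hydrogel (median -0.92). Without the shared barcodes the medians were -0.95 and -0.77, over all keratinocytes that of hydrogel was -0.60, and under a stricter cell filter that of CO hydrogel was -0.61. In gated fibroblasts the same list had medians of 0.15 and -0.13. In keratinocytes its members included proteases, protease inhibitors and adhesion receptors.

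The promoters of some of these genes hold the letters TGANTCA, the core bound by AP-1 factors (Fos and Jun), and 3 are shown because their genes are among the members described next. Each stretch is the 250 bases before the start site, 5′ to 3′ on the gene's strand, from RefSeq on build GRCr8, which differs from the build of the counts. Mmp13 lies at chr8:12782579-12782828 and Mmp3 at chr8:12925031-12925280, both on the plus strand. Serpinb2 lies at chr13:24055771-24056020, also on the plus strand. Capitals mark the matches, which begin 66, 71 and 189 bases before the start site.
Mmp13: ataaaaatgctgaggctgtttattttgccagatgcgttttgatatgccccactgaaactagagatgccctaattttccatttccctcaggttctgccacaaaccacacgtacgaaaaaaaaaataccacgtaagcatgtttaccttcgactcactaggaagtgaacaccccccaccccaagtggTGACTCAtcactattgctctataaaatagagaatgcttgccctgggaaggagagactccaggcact
Mmp3: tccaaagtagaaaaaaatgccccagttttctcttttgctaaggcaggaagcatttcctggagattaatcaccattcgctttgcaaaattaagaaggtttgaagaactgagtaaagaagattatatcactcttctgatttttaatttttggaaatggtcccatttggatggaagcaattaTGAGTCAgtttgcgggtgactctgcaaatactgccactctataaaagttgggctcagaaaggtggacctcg
Serpinb2: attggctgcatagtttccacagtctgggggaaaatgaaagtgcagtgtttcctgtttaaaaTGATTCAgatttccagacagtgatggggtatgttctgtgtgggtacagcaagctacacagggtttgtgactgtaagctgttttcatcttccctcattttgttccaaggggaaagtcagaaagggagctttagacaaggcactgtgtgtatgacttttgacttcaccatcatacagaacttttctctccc

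Over windows of 300 bases (250 before and 50 after the start site), 6 of the 17 wound-activated genes with a promoter in the table (of 28 listed) held TGANTCA, which reads the same on both strands, against 7.33% of all 33469 promoters. These were Mmp1, Mmp3, Mmp10, Mmp13, Plaur and Serpinb2. Those of Itga5, Plau and Cd44, described next, held none. Mmp1, Mmp3, Mmp10 and Mmp13 neighbour each other within 192 kb, so they are not separate cases. A listed gene was counted if any of its promoters held the letters, while the background counts each promoter, so these are unlike measures. A match describes the letters and shows neither binding nor a cause.

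Mmp13, a collagenase, stood at 823 CPM in untreated, 146 in hydrogel and 456 in CO hydrogel keratinocytes, against 16.5, 17.6 and 59.5 CPM in the other barcodes. Its log2 ratio was -2.50 for hydrogel to untreated (interval -2.77 to -2.23) and 1.64 for CO hydrogel to hydrogel (1.37 to 1.92). Mmp13 was thus highest in untreated, lowest in hydrogel and between them in CO hydrogel. With cells thinned to 1000 UMIs, the ratio of CO hydrogel to hydrogel was 0.18, and in the mean over cells it was 0.96, so its 2-fold call was not kept. Mmp3, stromelysin-1, stood at 266, 46.5 and 59.5 CPM, but 1 cell held 47.0% of the untreated UMIs. Mmp9, a gelatinase, stood at 982, 362 and 820 CPM, with 57.6% of the hydrogel UMIs in 1 cell.

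Serpinb2, an inhibitor of plasminogen activators, stood at 1155, 487 and 254 CPM, a log2 ratio of -1.25 for hydrogel and -2.19 for CO hydrogel to untreated. Plau, the plasminogen activator urokinase, stood at 61.3, 27.0 and 26.5 CPM. Both genes were lower in both treated libraries. Itga5, the integrin chain of the fibronectin receptor, stood at 218, 53.0 and 75.2 CPM. Thinned, the log2 ratios of Itga5 to untreated were -0.88 in hydrogel and -0.50 in CO hydrogel. Fst, which binds and blocks activin, stood at 570, 254 and 164 CPM, but thinned its log2 ratio for hydrogel to untreated turned to 0.32. Cd44, the receptor for hyaluronan, which is also the material of both gels, stood at 788, 398 and 400 CPM, a log2 ratio of -0.99 for hydrogel to untreated and -0.98 for CO hydrogel to untreated, just short of 2-fold. Krt16 stood at 270, 93.04 and 125 CPM, with 55.8% of the hydrogel UMIs in 1 cell.

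The basal layer list moved in part. Of 12 members measured for hydrogel to untreated, 4 were lower and 1 higher (median -0.53), and of 13 for CO hydrogel to untreated, 4 were lower and 3 higher (median -0.56). Lamb3, a chain of the laminin that basal cells lay down as they migrate, stood at 1606, 543 and 599 CPM, with log2 ratios to untreated of -1.56 in hydrogel and -1.42 in CO hydrogel. Itga3, a receptor chain for that laminin, stood at 181, 77.9 and 83.1 CPM. The laminin chain and its receptor were thus lower in either treated library than in untreated, and close to each other in the treated libraries. Without the shared barcodes the medians of the list were -0.54 and -0.48.

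Desmosome and junction genes had 4 of 16 members lower in hydrogel and 5 of 16 lower in CO hydrogel than in untreated, and 0 higher in either (medians -0.38 and -0.45). Dsg3, the desmoglein of basal cells, stood at 1000.46, 482 and 486 CPM. Gjb2, the gap junction protein connexin 26, stood at 1953, 1059 and 966 CPM. Cldn4, a tight junction claudin, stood at 444, 136 and 101 CPM.

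Genes of hypoxia and glycolysis were lower as well. In hydrogel 8 of 23 members were lower and 0 higher than in untreated (median -0.77), and in CO hydrogel 5 of 24 were lower and 1 higher (median -0.56). Between the treated libraries 2 of 23 were higher in CO hydrogel and 0 lower (median 0.23). In gated fibroblasts the list had medians of -0.62 in hydrogel and -0.80 in CO hydrogel against untreated, so the list was lower there too. Gated macrophages had -0.31 and -0.67, while gated neutrophils went the other way, at 0.37 and 0.34.

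Ndrg1, a gene induced by low oxygen, stood at 1037, 260 and 453 CPM, a log2 ratio of -1.998 for hydrogel and -1.20 for CO hydrogel to untreated. Vegfa, the growth factor for blood vessels, stood at 176, 57.3 and 72.4 CPM. Slc16a3, which exports lactate, stood at 71.5, 19.5 and 21.5 CPM. Hk2, a hexokinase, stood at 536, 132 and 163 CPM, with 45.8% of the untreated UMIs in 1 cell. All 4 were highest in untreated. Bnip3, a receptor for the removal of mitochondria, stood at 60.2, 10.8 and 34.4 CPM, a log2 ratio of -2.48 for hydrogel to untreated and 1.67 for CO hydrogel to hydrogel, the latter 0.61 over all keratinocytes. The promoter of Bnip3 is shown as an example picked for its 4 matches to the core bound by hypoxia-inducible factors, ACGTG or GCGTG on either strand, of which an ACGTG on each strand overlap. Those of Hk2, Tpi1, Slc16a3 and Vegfa hold none. The stretch is chr1:203154963-203155212 of GRCr8 on the minus strand, the 250 bases before the start site from RefSeq, with the matches in capitals.
Bnip3: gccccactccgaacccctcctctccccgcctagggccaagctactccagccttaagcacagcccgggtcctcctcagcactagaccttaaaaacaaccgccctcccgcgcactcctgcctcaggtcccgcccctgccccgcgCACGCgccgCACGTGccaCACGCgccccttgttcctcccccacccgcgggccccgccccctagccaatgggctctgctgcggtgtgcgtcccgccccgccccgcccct

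Of the 20 hypoxia genes with a promoter in the table (of 26 listed), 14 held that core within the 300 bases, or 70%, against 41.6% of all promoters and 7 of 17 wound-activated genes. TGANTCA was in 1 of the 20. Here too the lists were counted per gene and the background per promoter, which are unlike measures. The match is a description of these windows and bears on no binding.

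**Figure D2:**
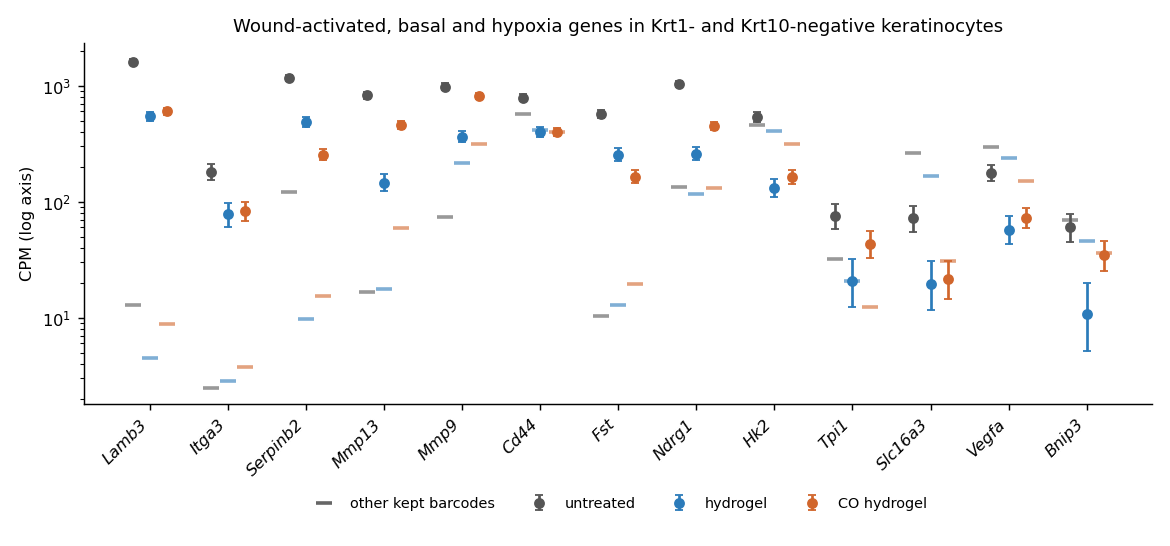
Level in CPM (log axis) of wound-activated, basal and hypoxia genes in Krt1- and Krt10-negative keratinocytes of the 3 libraries (points, with exact 95% Poisson intervals) and in the other kept barcodes (dashes). The untreated point is the highest for each gene shown. For Mmp13, Mmp9, Tpi1 and Bnip3 the CO hydrogel point stands at least 2-fold above the hydrogel point, with log2 ratios of 1.64, 1.18, 1.06 and 1.67. Thinned to 1000 UMIs, the ratio of Tpi1 turned to -1.49.

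**Figure D3:**
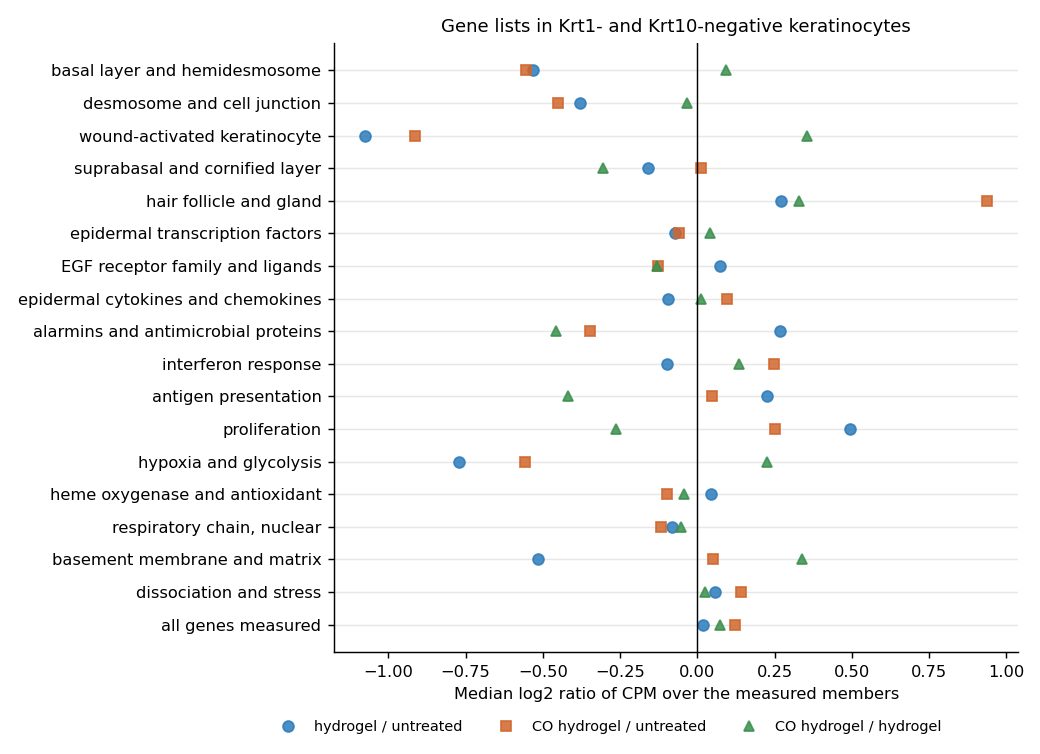
Median log2 ratio of CPM over the measured members of each gene list, for the 3 pairs of libraries, in Krt1- and Krt10-negative keratinocytes. The wound-activated list is lowest for both treated libraries against untreated, at -1.08 and -0.92, and the hair follicle and gland list is highest for CO hydrogel to untreated, at 0.94.

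A list of hair follicle and gland genes was higher in CO hydrogel than in untreated, with 9 of 20 measured members higher and 3 lower (median 0.94, and 0.91 without the shared barcodes). In hydrogel 6 of 17 were higher and 3 lower (median 0.27). For CO hydrogel to untreated the median was 0.27 over the 9 members measured after thinning, 0.57 with 1 UMI of Ptprc, Pdgfra or Cdh5 allowed, and 0.56 in cells with at least 5000 UMIs. Gated neutrophils had 10 of 14 members higher and 0 lower (median 1.41) in that pair, while gated fibroblasts and macrophages had medians of 0.14 and 0.29. Members were chosen by keratinocyte counts, with no minimum count inside a gate. The neutrophil gate held 210 CO hydrogel cells at a median of 1406.5 UMIs, against 1569 at 2190 in untreated. The desmosome and junction list had a median of 1.37 in that gate and pair. The suprabasal, basal layer and wound-activated lists had 1.25, 0.82 and 0.67 there, and nuclear genes of the respiratory chain 1.09. Lists of epidermal transcription factors, the EGF receptor family and cytokines had -0.06, -0.07 and -0.35. The part of free RNA in the keratinocyte values was not tested. Barx2, a homeobox factor of epithelial appendages, stood at 7.95, 28.1 and 38.7 CPM in untreated, hydrogel and CO hydrogel. Foxc1, a forkhead factor of follicle stem cells and sweat glands, stood at 11.4, 27.0 and 43.0 CPM. Gata3, a factor of the inner root sheath and of epidermal differentiation, stood at 29.5, 64.9 and 80.9 CPM. By summed UMIs each of the 3 factors was at least 2-fold higher in both treated libraries than in untreated. The untreated levels of Barx2 and Foxc1 rest on few UMIs. Under alternatives the lowest log2 ratios to untreated, in hydrogel and CO hydrogel, were 1.06 and 1.22 for Barx2. They were 0.69 and 0.95 for Foxc1 and 0.77 and 0.82 for Gata3. The direction was thus kept, but the 2-fold call of Foxc1 and Gata3 was not kept throughout. Sostdc1, a secreted inhibitor of BMP and Wnt signals, stood at 22.7, 53.0 and 49.4 CPM. Krt79, a keratin of the upper follicle and sebaceous duct, stood at 19.3, 213 and 383 CPM, but 1 cell held 31.0% of the hydrogel and 52.2% of the CO hydrogel UMIs. Tfap2b, from another list, stood at 48.8, 93.04 and 138 CPM in these cells. The 3 members lower in CO hydrogel than in untreated were Fst, Krt8 and Krt18, the latter a keratin pair of simple epithelia, sweat glands and Merkel cells. Krt8 stood at 387, 32.5 and 11.5 CPM, in 10.7%, 5.81% and 3.49% of cells, and Krt18 had 71, 6 and 1 UMIs. Of the 6 genes of a Merkel cell list, Krt8, Krt18 and Krt20 were detected in negative keratinocytes of every library. Sox2, Atoh1 and Isl1 were at 0 in these cells. The list summed to 470, 40.0 and 12.9 CPM in them.

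The cytokine and chemokine list moved both ways, with 6 of 27 members higher and 9 lower in hydrogel and 7 of 29 higher and 8 lower in CO hydrogel than in untreated. Ccl27, the epidermal chemokine for skin-homing T cells, stood at 39.7, 330.0 and 323 CPM, and at 3.02, 5.14 and 6.97 CPM in the other barcodes. Its log2 ratio to untreated was 3.05 (interval 2.55 to 3.602) in hydrogel and 3.02 (2.53 to 3.56) in CO hydrogel. Cxcl14, a chemokine of resting epidermis, stood at 370.2, 1085 and 1123 CPM, and at 104, 116 and 128 CPM in the other barcodes. The ratio of Cxcl14 for hydrogel to untreated was 0.27 in the mean over cells, and that for CO hydrogel was 0.84 in cells with at least 5000 UMIs. Both genes were higher in the treated keratinocytes by their summed UMIs, and about level between the treated libraries, with log2 ratios of CO hydrogel to hydrogel of -0.03 and 0.05. Ccl20, which recruits cells bearing Ccr6, stood at 99.9, 512 and 393 CPM. Its mean over cells went the other way, with log2 ratios to untreated of -0.58 in hydrogel and -0.64 in CO hydrogel.

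The members that were lower were in part genes that neutrophils and macrophages also express. Cxcl3, a neutrophil chemokine, stood at 1098, 458 and 129.7 CPM in keratinocytes and at 11261, 1827 and 506 CPM in the other barcodes. Cxcl2, of the same family, stood at 707, 291 and 155 CPM, and at 16874, 4756 and 1289 CPM in the other barcodes. Il1b stood at 336, 159 and 55.9 CPM, and at 6734, 3601 and 778 CPM in the other barcodes. In all 3 the order of the libraries was the same inside and outside keratinocytes, and the part of RNA from other cells was not tested. Il24, a cytokine of the interleukin-10 family, stood at 262, 213 and 93.8 CPM, a log2 ratio of -1.48 for CO hydrogel to untreated and -1.18 for CO hydrogel to hydrogel. Over all keratinocytes the latter was -0.36.

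Alarmins and antimicrobial proteins were higher in hydrogel than in untreated in 5 of 20 members and lower in 0 (median 0.27), and lower in CO hydrogel than in hydrogel in 6 of 21 and higher in 0 (median -0.46). S100a8 and S100a9 are the chains of calprotectin, an antimicrobial protein. S100a8 stood at 2259.8, 10434 and 4419.9 CPM, and S100a9 at 2034, 9226 and 3389.8 CPM. In hydrogel 1 cell held 52.3% of the S100a8 and 55.6% of the S100a9 UMIs, and the log2 ratio of S100a8 for hydrogel to untreated was 2.21 by summed UMIs but 0.49 in the mean over cells. The median of the list for that pair was -0.15 in the mean over cells and -0.18 thinned. In the other barcodes S100a8 stood at 2531, 1207 and 328 CPM, an order that differs from the one in keratinocytes. S100a6, a calcium-binding protein of dividing and wounded epithelium, stood at 16038, 8724 and 7035 CPM, and Anxa1, annexin A1, at 7770, 3905 and 3262 CPM. Both were highest in untreated and lowest in CO hydrogel. Over all keratinocytes, positive ones included, the median of the list was 0.63 for hydrogel and 0.21 for CO hydrogel to untreated, where the latter was -0.35 in negative cells.

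**Figure D4:**
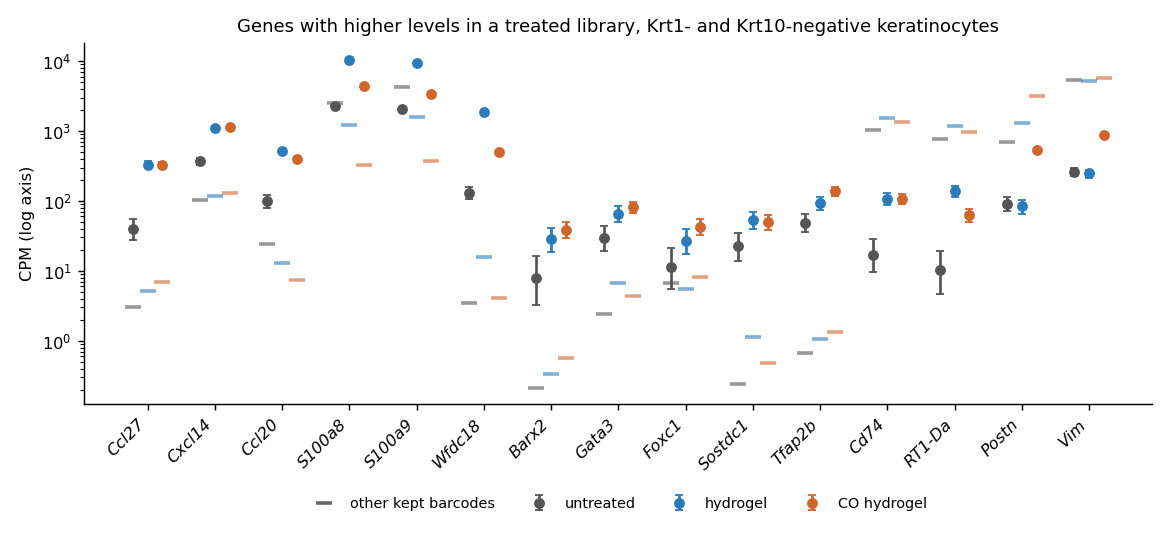
Level in CPM (log axis) of chemokine, alarmin, follicle, antigen presentation and matrix genes in Krt1- and Krt10-negative keratinocytes of the 3 libraries (points, exact 95% Poisson intervals) and in the other kept barcodes (dashes). Ccl27 and Cxcl14 lie above the other barcodes in every library, while Cd74, RT1-Da and Postn lie below them.

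In the antigen presentation list 4 of 9 members were higher and 0 lower in each treated library than in untreated, with medians of 0.23 in hydrogel and 0.05 in CO hydrogel. Cd74, the invariant chain of MHC class II, stood at 17.0, 107 and 105 CPM. RT1-Da, a rat class II chain, stood at 10.2, 137 and 63.0 CPM. In the other barcodes these genes stood between 759 and 1556 CPM, far above keratinocytes, and gated fibroblasts had 5 and 4 of 9 members higher in hydrogel and CO hydrogel. The part of free RNA in these values was not tested.

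Matrix genes separated the treated libraries, together with fibroblast RNA. In the basement membrane and matrix list 8 of 27 members were higher in CO hydrogel than in hydrogel and 0 lower (median 0.34). Postn, periostin, stood at 90.8, 83.3 and 535 CPM in keratinocytes and at 704, 1304 and 3145 CPM in the other barcodes. Vim, the intermediate filament of mesenchymal cells, stood at 261, 247 and 868 CPM, and Mmp2, a gelatinase of fibroblasts, at 60.2, 41.1 and 166 CPM. All 3 were highest in CO hydrogel, where the fibroblast list was also highest. Without cells in which Col1a1, Col3a1 and Dcn exceed 1% of UMIs, a restriction chosen after seeing the data, 1 of 25 members was higher (median 0.01). The log2 ratios of CO hydrogel to hydrogel then went from 2.68 to 1.53 for Postn, from 1.81 to 0.12 for Vim and from 2.01 to 0.31 for Mmp2. The same restriction changed the calls of CO hydrogel to hydrogel over all genes from 169 higher and 48 lower to 71 higher and 64 lower. It left the lists described before close to their values, with wound-activated medians of -1.09 and -0.96, hypoxia medians of -0.81 and -0.51 and follicle medians of 0.23 and 0.96 for hydrogel and CO hydrogel to untreated.

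Proliferation genes had 3 of 20 members higher and 0 lower in hydrogel than in untreated (median 0.49). Top2a, the topoisomerase of dividing cells, stood at 61.3, 203 and 84.5 CPM, and Mcm7, of the replicative helicase, at 10.2, 45.4 and 21.5 CPM. Over all keratinocytes the list's median was -0.22 with 0 members past 2-fold, and the share of cycling cells given before was not higher in hydrogel, so the direction depends on which cells are summed. In gated fibroblasts 8 of 20 members were lower.

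Several lists differed little. All 21 measured nuclear genes of the respiratory chain lay within 2-fold in every pair. In the heme oxygenase and antioxidant list, which holds the enzyme that makes carbon monoxide in cells, 2 of 29 were higher and 3 lower in hydrogel than in untreated, and 1 and 3 in CO hydrogel. Hmox1, that enzyme, stood at 183, 72.5 and 59.5 CPM, and Nqo1, an antioxidant enzyme, at 135, 56.3 and 73.1 CPM. Their log2 ratios changed sign for hydrogel to untreated in the mean over cells, to 0.69 and 0.017, and thinned, that of Hmox1 changed sign for hydrogel (0.86) and for CO hydrogel (0.13) to untreated. The EGF receptor list had 1 of 13 members higher and 1 lower in hydrogel and 1 of 15 higher and 2 lower in CO hydrogel than in untreated. Of dissociation and stress genes, 1 of 18 and 1 of 19 were higher and 0 lower, with medians of 0.06 and 0.14.

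Suprabasal genes need both cell sets. In negative cells 4 of 21 members were higher and 3 lower in hydrogel (median -0.16), and 5 of 22 higher and 6 lower in CO hydrogel (median 0.01), each against untreated. Over all keratinocytes 14 of 24 were higher and 1 lower in hydrogel (median 1.34), and 15 of 26 higher and 1 lower in CO hydrogel (median 1.27). The same list was also higher in cells that should lack it. For hydrogel to untreated its medians were 0.63 in gated fibroblasts, 1.41 in macrophages and 1.60 in neutrophils. For CO hydrogel to untreated they were 1.44, 1.29 and 1.25. The last value rests on 13 members in the 210 CO hydrogel cells of the neutrophil gate, with the limits given for the follicle list. The part of free RNA in the keratinocyte values was not tested. Krtdap, a small secreted protein of differentiating keratinocytes, stood at 42.0, 362 and 251 CPM in negative cells. Cnfn, cornifelin of the cornified envelope, stood at 198, 105 and 11.5 CPM there, and Tgm3 at 438, 177 and 99.6 CPM, so in negative cells members of the list ran in opposite directions. Over all keratinocytes the log2 ratio of Cnfn for CO hydrogel to untreated turned to 2.05.

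Across all genes, those named by a rule of size, spread over cells and level above the other barcodes added the following. In CO hydrogel against hydrogel, the highest were Apcdd1, an inhibitor of Wnt signals, at 13.0 and 41.5 CPM (log2 ratio 1.68, interval 0.77 to 2.71), Mmp13, and Ndufa4l2, a mitochondrial protein induced by low oxygen, at 26.0 and 73.1 CPM (1.49, 0.84 to 2.20). Wls, which carries Wnt proteins to the surface, was at 18.4 and 49.4 CPM. The lowest was Wfdc18, a secreted protein of the whey acidic protein family, at 1859 and 502 CPM (-1.89, -2.02 to -1.76), followed by Hist1h2bo and Top2a. With each cell thinned to 1000 UMIs, the ratio of Apcdd1 became -0.27 and that of Wls -0.078, so their direction was not kept at equal depth. Thinning also turned Hist1h2bo to 0.83 and Mcm7 to 0.51, and the mean over cells turned Lrat to 0.11. Haus7, Slc38a4, Rfx7, Ino80c, Dhrs9 and Ift57 completed the higher genes, with log2 ratios between 1.23 and 1.46. Lrat, Ddx49, Il24, Rchy1, Ppif, Slc16a1 and Mcm7 completed the lower ones, between -1.27 and -1.08. Over all keratinocytes only Mmp13, Slc38a4, Wfdc18 and Lrat stayed past 2-fold in this pair, at 1.73, 1.48, -1.92 and -1.19. The other genes named for it fell short, with Apcdd1 at 0.027, Rfx7 at 0.077, Dhrs9 at 0.25 and Top2a at -0.30.

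Against untreated, Fcgbp, a mucin-like protein that binds the Fc part of IgG, stood at 2.27, 114 and 140 CPM, resting on 2 UMIs in untreated, with a log2 ratio of 5.94 in CO hydrogel (interval 4.07 to 9.00). Ltbp4, which holds latent TGF-beta in the matrix, stood at 12.5, 62.7 and 75.2 CPM. Wfdc18 stood at 129, 1859 and 502 CPM, 3.84 higher on the log2 scale in hydrogel (3.57 to 4.13). Kank1, Clca5, Ramp3, Nuak1 and Apcdd1 were the other higher genes.

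Pdpn, podoplanin, a membrane protein of migrating keratinocytes, stood at 1616, 528 and 496 CPM, a log2 ratio of -1.70 in CO hydrogel (interval -1.84 to -1.57) and -1.61 in hydrogel. Cdkn1c, the cell cycle inhibitor p57, stood at 283, 57.3 and 88.1 CPM, and Igfbp3, which binds insulin-like growth factors, at 1166, 287 and 493 CPM. Gprc5a, a receptor induced by retinoic acid, stood at 106, 36.8 and 19.3 CPM, and Nr1d1, a repressor of the circadian clock, at 43.2, 18.4 and 10.7 CPM. All of these were lower in both treated libraries. Cdhr1, Prtfdc1 and Mid1ip1 were the remaining lower genes. Of the 147 ratios of named genes that were at least 2-fold, 140 stayed so without the shared barcodes, and none changed sign. Over all keratinocytes 95 of 147 stayed so and 2 changed sign, in the mean over cells 100 of 147 and 6, and thinned 88 of the 130 that could be measured and 9.

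Within libraries, Krt1- or Krt10-positive keratinocytes were compared with negative ones over 6 summed profiles, 1 of each kind per library, with the library as a block in edgeR's quasi-likelihood test. Of 8779 genes, 0.0228% were higher and 0.0114% lower at an adjusted p under 0.05, and 634 had an unadjusted p under 0.05. Krtdap was higher in positive cells, at 208 against 42.0 CPM in untreated, 1439.7 against 362 in hydrogel and 1302 against 251 in CO hydrogel (log2 fold change 2.29, SE 0.13, edgeR adjusted p 0.0015, higher in 3 of 3 libraries). Defb4, a beta-defensin, was called higher (4.72, SE 0.42, adjusted p 0.0408) but had no UMI in untreated. Vcan, versican, a matrix proteoglycan of fibroblasts, was lower in positive cells in 3 of 3 libraries (-2.21, SE 0.22, adjusted p 0.0408). Without the CO hydrogel library none of the 3 passed (adjusted p 0.0899 for Krtdap, 0.381 for Defb4 and 0.627 for Vcan), and without the hydrogel library Defb4 did not (0.159). Positive cells were deeper, with medians of 29555, 14177 and 13578 UMIs against 2316, 3597.5 and 2978 in negative cells, and held less RNA of the fibroblast list, at 456 against 3368 CPM in untreated, 902 against 1365 in hydrogel and 2064 against 6552 in CO hydrogel. Without cells over 1% fibroblast UMIs the log2 fold change of Vcan was -1.58 and it lost its call (edgeR adjusted p 0.26).

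Since 1 UMI of these keratins was also found in many gated fibroblasts, the comparison was repeated with at least 3 UMIs of Krt1 and Krt10. This left 8, 23 and 60 positive cells in untreated, hydrogel and CO hydrogel. Cells with fewer such UMIs were counted as negative, giving 90, 110 and 291 negative cells. The 8 untreated cells fall short of the minimum of 10 per subset planned for this test, so its calls are read as description. In it 0.729% of genes were higher and 0.308% lower. Of 25 suprabasal genes, 6 were called higher and 0 lower, and 24 had a positive fold change, where 4123 of all 8779 genes did. Dsg1, the desmoglein of the upper epidermis, was at 105 against 26.3 CPM in untreated, 227 against 40.5 in hydrogel and 181 against 43.2 in CO hydrogel (log2 fold change 2.38, SE 0.18, edgeR adjusted p 0.00608). Dmkn, dermokine, and Klk8, a protease of the upper layers, were higher too (1.53 and 1.71), as were Evpl and Lypd3 (1.13 and 0.93). Krt16 was higher by 2.39 (SE 0.21, edgeR adjusted p 0.00608) and Dsp by 0.95, and 4 of 16 junction genes were called higher and 0 lower. Most of the wound-activated list, which includes Krt16, went the other way. Of its 23 members 1 was called higher and 2 lower, and 5 had a positive fold change (median -0.96). Of 13 basal layer genes, 2 were called lower and 0 higher: Col17a1, the hemidesmosomal collagen (-0.75), and Postn (-2.58). Fibroblast genes were lower as well, with Col1a1 at -1.87 and Dcn at -2.14, and the part of fibroblast RNA in the basal result was not tested.

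**Figure D5:**
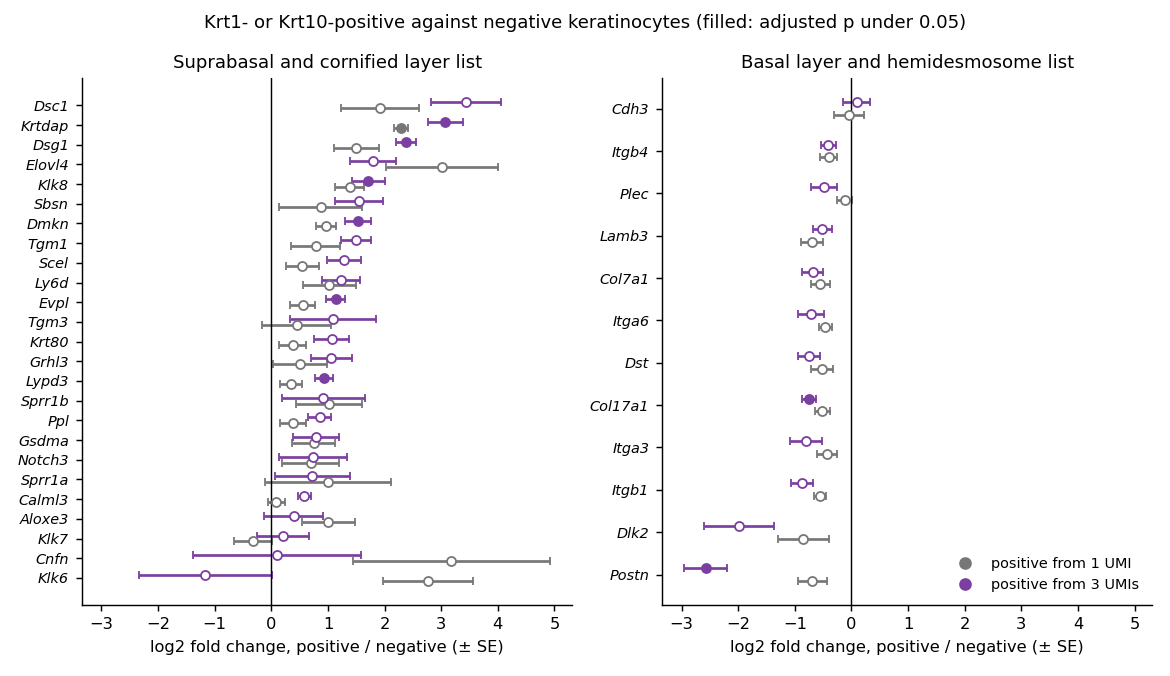
Log2 fold change, with SE, of suprabasal and basal list genes in Krt1- or Krt10-positive against negative keratinocytes, with positive cells called from 1 UMI (grey) or from 3 UMIs (purple); filled points pass an edgeR adjusted p under 0.05. Suprabasal genes lie to the right of 0 in 24 of 25 cases and the basal genes shown lie to the left of it from 1 UMI. From 3 UMIs the untreated library had 8 positive cells.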

How the data were processed

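Cells of 3 libraries were counted with 10x 3′ v3.1 chemistry. The deposited matrices hold UMI counts per gene and barcode, made with Cell Ranger 6.0.1 per the file headers and Cell Ranger 7.0.0, Seurat 4.2.0, DESeq 1.38.0 and build rn6 per the submitters' processing notes. Of 32883 features, 18458 could be named. Their symbol belongs to 1 feature only and is not mitochondrial, ribosomal, hemoglobin, immunoglobulin or a placeholder for a clone or locus. The members and gene lists were chosen with earlier results of these data known.

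From the counts, UMIs of the cells of a set were summed per library and scaled to 1000000 (CPM); genes of the rule were left out of the lists. Intervals are exact at the 95% level (binomial for shares and ratios, Poisson for levels). Named genes needed 50 UMIs over a pair, a UMI in 10% of cells and no cell with over 25% of the UMIs in the higher library, and a level above the other barcodes; the 10 highest and 10 lowest were taken for CO hydrogel to hydrogel and 6 and 6 for the other pairs. Fibroblasts were gated by Pdgfra and Dcn UMIs with no Ptprc or Cdh5 UMI. Neutrophils were gated by Csf3r and G0s2 UMIs with no C1qa, C1qb, Pdgfra or Cdh5 UMI. Doublets were kept in the main results, and Scrublet scores (scanpy 1.11.5) were used for an alternative without them.

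Positive and negative keratinocytes were compared with edgeR 4.0.16 (R 4.3.3), over genes with at least 30 UMIs, with the library as a block because both sums of a pair come from the same library. On simulated counts for 8755 genes this test recovered 19 of 84 genes changed 2-fold and 87 of 97 changed 4-fold, with 4 false calls. The simulation gave all genes the same fixed dispersion and all libraries the same gene proportions. It therefore does not give the power or error of the test in these data. DESeq2 1.42.0 was an alternative. Some members of the lists are counted but not reported by name here.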

Additional observations from a re-analysis of the deposited data

How the results depend on the processing

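Restrictions by shared barcodes, fibroblast UMIs (Col1a1, Col3a1 and Dcn), a minimum of 5000 UMIs per cell and positivity from 2 UMIs were chosen after seeing the data. The share of keratinocytes in CO hydrogel was 2.10% under a stricter cell filter, 2.03% with doublets removed, 2.76% with 1 UMI of Ptprc, Pdgfra or Cdh5 allowed, 1.86% with a keratin share of 1% and 1.82% without cells over 1% fibroblast UMIs. Outside the neutrophil gate and without Ptprc it was 1.91%, 2.15% and 3.32% in untreated, hydrogel and CO hydrogel. Positive shares were 23.5%, 35.3% and 34.8% and cycling shares 31.6%, 23.3% and 22.5% without thinning. At 2000 UMIs the positive share of CO hydrogel was 22.6%, and cycling was 17.0% in hydrogel and 15.6% in CO hydrogel. With 3 UMIs needed after thinning, positive shares were 6.10%, 9.91% and 8.31%.

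Counts of genes 2-fold higher and lower, for CO hydrogel to hydrogel, CO hydrogel to untreated and hydrogel to untreated in turn, were 427 and 269, 631 and 335, and 384 and 348 by the mean over cells; 39 and 13, 47 and 33, and 16 and 23 thinned; 471 and 153, 729 and 286, and 394 and 409 from 20 UMIs; and 1664 and 1303, 2257 and 1381, and 2388 and 1835 with no minimum. Higher genes for CO hydrogel to hydrogel numbered 89 with a keratin share of 1%, 71 without cells over 1% fibroblast UMIs and 77 in cells with at least 5000 UMIs. With at least 5000 UMIs, 166 genes were higher for CO hydrogel to untreated, and over all keratinocytes 196 were higher for hydrogel to untreated.

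Of 1743 values of 147 gene ratios under alternatives, 18 changed sign and 418 moved by more than their interval. Over all keratinocytes the sign changed for Cnfn (CO hydrogel to untreated, 2.05) and Top2a (hydrogel to untreated, -0.087). In the mean over cells it changed for Lrat (CO hydrogel to hydrogel, 0.11), Ccl20 (-0.64 for CO hydrogel and -0.58 for hydrogel to untreated), and Hmox1, Mki67 and Nqo1 (hydrogel to untreated, 0.69, -0.78 and 0.017). Thinned, it changed for Apcdd1, Hist1h2bo, Mcm7, Tpi1 and Wls (CO hydrogel to hydrogel, -0.27, 0.83, 0.51, -1.49 and -0.078), Hmox1 (0.13 for CO hydrogel and 0.86 for hydrogel to untreated), and Fst and Mki67 (hydrogel to untreated, 0.32 and -0.72). Without cells over 1% fibroblast UMIs it changed for Col4a1 (CO hydrogel to untreated, -0.12). The cause was not tested. Of 649 list medians under alternatives, 53 moved and 596 did not.

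For positive against negative cells, the paired fit with the library as replicate block gave 2 genes higher and 1 lower, and the fit with no replicate block gave 0 and 0, with 382 genes at an unadjusted p under 0.05. Calls numbered 0 and 0 under the stricter filter, 22 and 27 with 1 lineage UMI allowed, 8 and 4 without shared barcodes, 64 and 27 from 3 UMIs, 32 and 31 from 2 UMIs, 34 and 23 thinned, 127 and 144 with no minimum count, 11 and 12 in DESeq2, and 1 and 0 in cells with at least 5000 UMIs. With doublets removed, a keratin share of 1%, or no cells over 1% fibroblast UMIs, 0 were lower. Leaving out 1 library gave 0 to 229 higher and 0 to 150 lower, the most without untreated and 0 without CO hydrogel. Krtdap lost its call under the stricter filter (adjusted p 0.0811), with no replicate block (1.00) and without CO hydrogel (0.0899).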

Other observations

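Wnt ligands were expressed in Krt1- and Krt10-negative keratinocytes of every library. Wnt4 stood at 218, 147 and 143 CPM in untreated, hydrogel and CO hydrogel, Wnt5a at 106, 50.8 and 63.0 CPM, and Wnt10a at 64.7, 72.5 and 81.7 CPM. Of these, only the ratio of Wnt5a in hydrogel to untreated passed 2-fold (log2 ratio -1.05, interval -1.59 to -0.53). In the other barcodes Wnt10a stood at most at 1.27 CPM, while Wnt5a stood at 37.1, 29.8 and 53.9 CPM. Sox9, a transcription factor of follicle stem cells, stood at 133, 160.1 and 245 CPM in keratinocytes.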
